A study of Mus musculus with 6 samples.

Results

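Homologous recombination, Fanconi and checkpoint genes make up the machinery that repairs broken and crosslinked DNA and holds the cell cycle while the repair runs. The 35 genes described here were chosen by name and function, with no measured value in the rule, from 53801 gene identifiers in the count tables. They comprise BRCA1-BARD1 with its partners and the end-resection genes (10), the genes of the Xrcc2 and Xrcc3 complexes (5), the strand invasion genes with the Blm helicase (4), the Fanconi core complex (8), the Fanconi ID2 heterodimer (2) and the checkpoint kinases and mediators (6). The RNA came from MC3T3-E1, a mouse calvarial pre-osteoblast cell line, in 6 poly-A RNA-seq libraries. The 3 Control libraries came from cells infected with a lentivirus that encodes a scrambled hairpin, and the 3 Hdac4-knockdown libraries from cells infected with a lentivirus that encodes a hairpin against Hdac4, a class IIa histone deacetylase. Cells of both groups carried the ZsGreen1 and puromycin-resistance vector and were selected with puromycin at 5 μg/mL for 7 days, so the groups share infection and selection. By the study's account, cells with 1 of its 3 hairpins against Hdac4 were sequenced. The study describes the 3 libraries of a group as biological replicates and the labels as independent RNA samples. Whether each came from its own infection is not given in the sources used here. The p-values weigh the difference between the groups against the spread between these samples. If the samples of a group share an infection, that spread leaves out differences between infections.

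In homologous recombination, a double-strand break is repaired from an intact copy of the sequence, usually the sister chromatid, which largely restricts the process to S and G2 phase. The Mre11-Rad50-Nbn complex and Rbbp8 (CtIP) start to resect the broken end, Exo1 extends the resection, and Brca1-Bard1, Palb2 and Brca2 prepare the single strand for pairing with the intact copy. At a crosslink between the strands, the Fanconi core complex acts as a ubiquitin ligase that modifies Fancd2 and Fanci, the ID2 heterodimer, after which recombination completes the repair. Atm and Atr are the kinases that sense breaks and stalled forks, and they pass the signal to Chek2 and Chek1. Many of these genes are transcribed mainly in proliferating cells, and pre-osteoblasts divide before they mature.

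Gene counts ranged from 29096544 to 31651826 per library. Hdac4 itself was at 40.3 ± 0.412 CPM (counts scaled to a common library size by TMM normalization) in Control and at 29.6 ± 0.981 CPM in the Hdac4-knockdown libraries (mean ± SD, n = 3 for all such values), which is 73.6% of Control (log2 fold change -0.44, SE 0.057, adjusted p = 8.98e-07). Among the markers of the labelled cell type, 7 of 10 osteoblast lineage genes were expressed enough to be tested. Alpl, Ibsp and Bglap were at or near 0 counts. In the Hdac4-knockdown libraries, 5 of the 7 were higher (beside 38% of all tested genes) and 2 lower (beside 37.1%). Runx2, called higher at a log2 fold change of 0.19, had overlapping groups. It was at 65.3 to 74.6 CPM in Control and 73 to 82.9 CPM in Hdac4-knockdown. Of the 7, Sp7 and Dlx5 were scarce in Control, at 0.145 ± 0.0828 CPM and 0.191 ± 0.0695 CPM. The summed osteoblast lineage level was 4770 to 4780 CPM in Control and 21400 to 22300 CPM in Hdac4-knockdown. Of these sums, Col1a1, a chain of the main bone collagen, made up 338 ± 14.4 CPM and 11000 ± 326 CPM, and Col1a2 1210 ± 22.5 CPM and 8570 ± 163 CPM. Spp1, the largest part in Control, was lower, at 3150 ± 30.9 CPM in Control and 2050 ± 36.1 CPM in Hdac4-knockdown. Msx2 was the other lower gene. All 5 skeletal muscle markers were lower (beside 37.1% of all tested genes), with a summed level of 128 to 135 CPM in Control and 19 to 20.5 CPM in Hdac4-knockdown. The largest part was Myod1, at 67.9 ± 3.62 CPM in Control and 8.96 ± 0.835 CPM in Hdac4-knockdown. The summed markers of adipocytes, of which Pparg alone was tested (lower), lay at 27.3 to 29.6 CPM in Control and 3.07 to 4.52 CPM in Hdac4-knockdown, with Lep at 0. Chondrocyte markers lay at 125 to 128 CPM against 169 to 186 CPM with Acan at 0. Of their 3 tested genes, 2 were higher (beside 38% of all tested genes). Sox9, the largest part in both groups, was not called, at 126 ± 1.66 CPM in Control and 127 ± 10.2 CPM in Hdac4-knockdown. Col2a1 went from 0.827 ± 0.179 CPM to 51.1 ± 2.4 CPM. Endothelial markers lay at 0.262 to 0.421 CPM against 3.04 to 3.19 CPM (the 1 tested gene higher, beside the same 38%). Leukocyte markers lay at 1.6 to 2.59 CPM against 2.69 to 3.13 CPM with Cd3e and Adgre1 at 0. Of their 2 tested genes, 1 was higher (beside the same 38%). Of the tested markers, Sp7, Dlx5, Comp, Pecam1 and Csf1r had fewer than 10 counts in every Control library. They passed the count filter through their Hdac4-knockdown counts, and Ckm through its Control counts. For these genes the filter thus favoured the direction in which they were called.

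All 35 repair and checkpoint genes passed the filter on low counts, with mean counts from 143.2 to 5726 per library. In the Hdac4-knockdown libraries, 25 of the 35 were downregulated, which is 71.4%, beside 37.1% of the 14531 genes tested in all. Xrcc3 and Fance were upregulated, that is 2 genes, beside 38% of all tested genes. The other 8 genes (Rad51b, Rad51d, Xrcc2, Rad51ap1, Fanca, Fancg, Fancm and Atm) did not pass the test. A gene was called in edgeR when its adjusted p was under 0.05 and its change exceeded 0.05 on the log2 scale in either direction. With a log2 fold change beyond 0.5 required, 16 were downregulated (45.7%, beside 19.8% of all tested genes) and 0 upregulated (beside 24.6%). The median log2 fold change of the 35 genes was -0.45, with a range of -1.16 to 0.47, and the median of all tested genes was 0.014.

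The libraries of each group lay close together. For 25 genes every Hdac4-knockdown library was below every Control library, beside 38% of all tested genes, and for 2 genes every Hdac4-knockdown library was above, beside 38.8%. These were the same 27 genes that passed the test. The median of the 35 genes, each set against its own Control mean, was 99.7%, 102% and 98.5% in the Control libraries and 71.9%, 72.5% and 72.4% in the Hdac4-knockdown libraries. Summed over the genes, the level went from 1430 ± 14.7 CPM to 1020 ± 16.9 CPM, or 71.2% of Control.

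**Figure D1:**
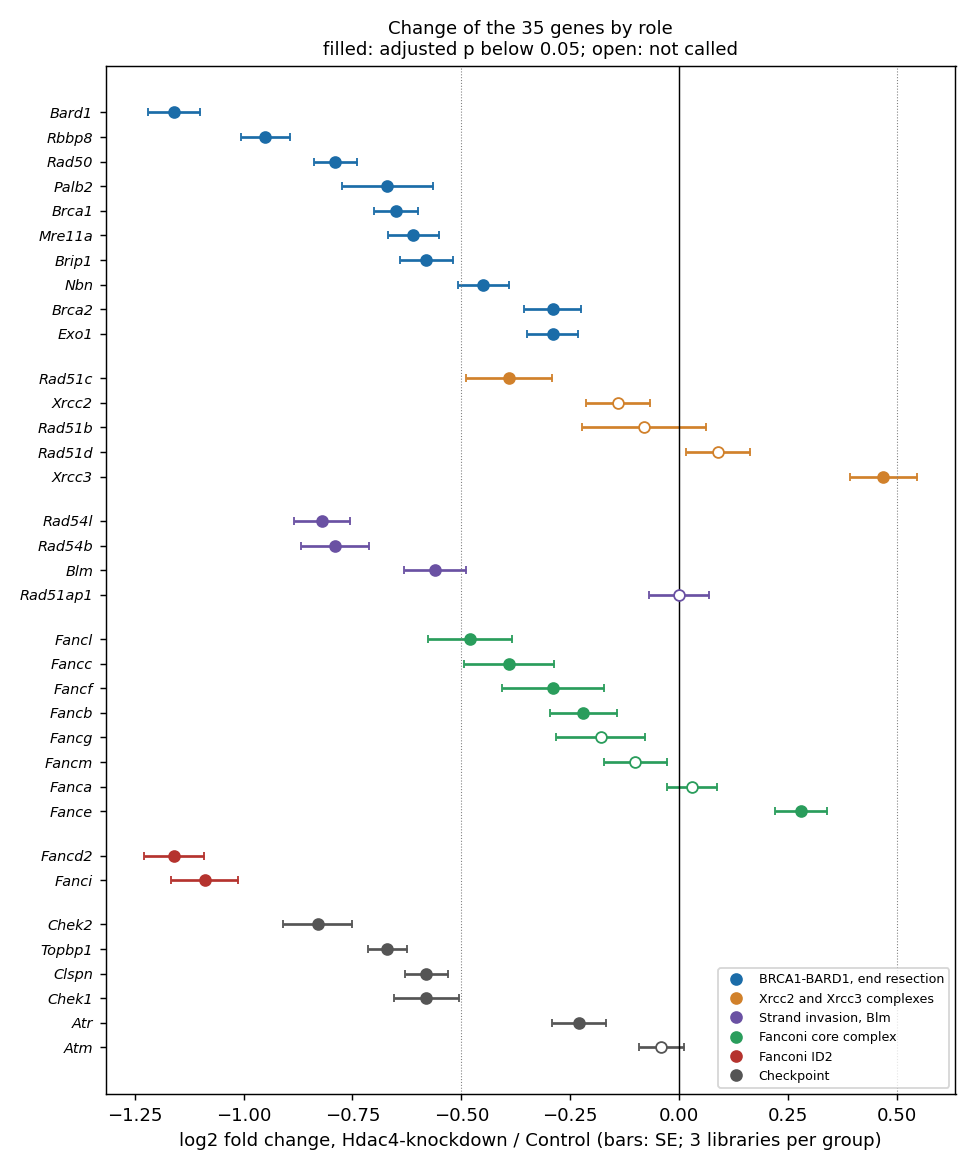
Log2 fold change (Hdac4-knockdown minus Control) of each of the 35 genes, grouped by role, with the SE from edgeR as the bar. Of the 35 points, 25 are called lower and 2 higher, and the lowest are Bard1 and Fancd2, both at -1.16.

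**Figure D2:**
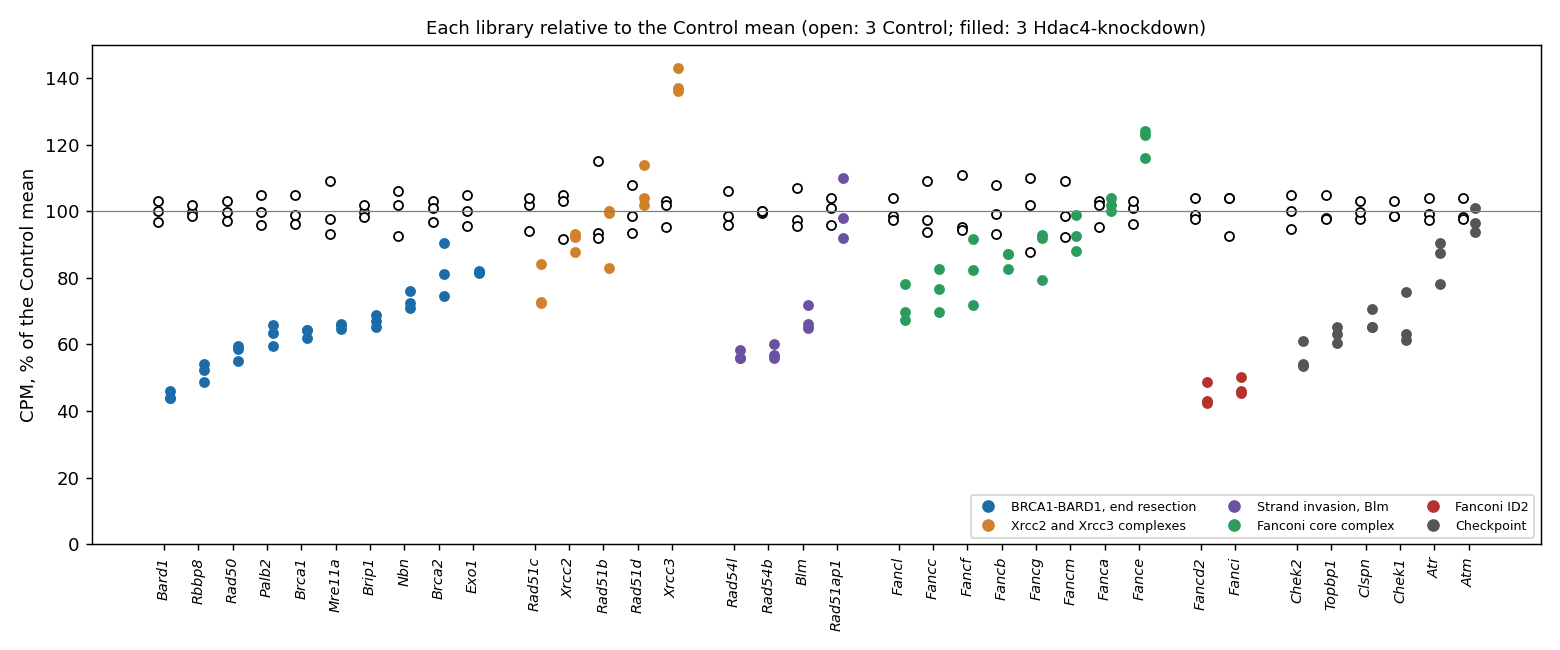
Level of each of the 35 genes in each library as a percentage of its Control mean CPM, ordered by role, with open points for the 3 Control and filled points for the 3 Hdac4-knockdown libraries. For 25 genes all filled points lie below the open ones, and for Xrcc3 and Fance they lie above.

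Genes that mark dividing cells moved as well. All 13 genes of an S phase list were lower (beside 37.1% of all tested genes), with a summed level of 3200 ± 3.08 CPM in Control and 2140 ± 24.8 CPM in Hdac4-knockdown (66.9% of Control, median log2 fold change -0.5). All 12 genes of a list for G2 and mitosis were lower (beside the same 37.1%), from 2850 ± 38.4 CPM to 1010 ± 34.8 CPM (35.4%, median -1.58). Their part in the change of the repair genes was not tested. In bulk RNA, fewer cells in these phases and less RNA per cell cannot be told apart.

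BRCA1-BARD1, its partners and the end-resection genes were downregulated without exception, 10 of 10 (beside 37.1% of all tested genes), and 7 of them beyond 0.5 on the log2 scale (beside 19.8%). Together they went from 529 ± 6.44 CPM to 338 ± 6.42 CPM (63.9% of Control), and their median log2 fold change was -0.63. Bard1, which pairs with Brca1 to form an active ubiquitin ligase, was at 48.3, 49.6 and 46.6 CPM in the Control libraries and at 21.1, 22.2 and 21.2 CPM in the Hdac4-knockdown libraries. The groups were thus far apart, and Bard1 was at 44.6% of Control (log2 fold change -1.16, SE 0.0589, adjusted p = 5.96e-13). Brca1, the scaffold of the complex, was at 81.7, 86.6 and 79.4 CPM in Control and at 53.2, 51.2 and 53 CPM in Hdac4-knockdown (63.5% of Control, log2 fold change -0.65, SE 0.0497, adjusted p = 3.83e-10). Both partners were lower in every Hdac4-knockdown library, and Bard1 by the larger factor. The ratio of Bard1 to Brca1 counts within a library was 0.592, 0.573 and 0.587 in Control and 0.398, 0.434 and 0.4 in Hdac4-knockdown.

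The remaining partners of Brca1 were also lower. Brip1, a helicase that binds Brca1, changed by -0.58 on the log2 scale (SE 0.0613, adjusted p = 6.19e-08) and Palb2, the bridge to Brca2, by -0.67 (SE 0.105, adjusted p = 1.12e-05). Palb2 was scarce, at 9.26 to 10.1 CPM in Control and 5.75 to 6.36 CPM in Hdac4-knockdown. Brca2, the central mediator of recombination, was at 44.3, 47 and 46.2 CPM in Control and at 41.4, 34.2 and 37.1 CPM in Hdac4-knockdown. Its groups came close to each other, and its change was, with that of Exo1, the smallest of these 10 genes (log2 fold change -0.29, SE 0.0649, adjusted p = 0.000552).

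Among the end-resection genes, Rbbp8, the partner that activates Mre11, had 57.7, 58.9 and 57 CPM in Control and 31.3, 28.2 and 30.2 CPM in Hdac4-knockdown. It was at 51.7% of Control in these libraries (log2 fold change -0.95, SE 0.0561, adjusted p = 6.98e-12). Rad50, the ATPase of the Mre11-Rad50-Nbn complex, had 92.1, 89.6 and 95.2 CPM against 54.2, 50.7 and 54.9 CPM (log2 fold change -0.79, SE 0.0494, adjusted p = 1.66e-11). Mre11a, the nuclease of that complex, changed by -0.61 (SE 0.0588, adjusted p = 1.5e-08) and Nbn, its signalling subunit, by -0.45 (SE 0.0587, adjusted p = 9.62e-07). All 3 subunits were lower, with Rad50 lowest relative to Control. Exo1, the exonuclease that extends resection, was at 37 to 40.5 CPM in Control and 31.6 to 31.8 CPM in Hdac4-knockdown, a change of -0.29 (SE 0.058, adjusted p = 0.00015).

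The genes of the Xrcc2 and Xrcc3 complexes, which assist recombination after resection, did not move as a group. Of the 5, Rad51c was downregulated (beside 37.1% of all tested genes), Xrcc3 was upregulated (beside 38%) and 3 did not pass the test. The summed level of the 5 was 72.9 ± 2.73 CPM in Control and 74.7 ± 0.907 CPM in Hdac4-knockdown (102%, median log2 fold change -0.08). Xrcc3 was at 13.7, 12.7 and 13.7 CPM in Control and at 19.1, 18.3 and 18.2 CPM in Hdac4-knockdown. This was the highest value of all 35 genes relative to Control, 139% (log2 fold change 0.47, SE 0.0768, adjusted p = 1.71e-05). Rad51c, with which Xrcc3 forms a complex, was at 11.4, 11.6 and 10.5 CPM against 9.37, 8.1 and 8.07 CPM (log2 fold change -0.39, SE 0.0991, adjusted p = 0.00158). The partners thus moved in opposite directions, and the Xrcc3 to Rad51c count ratio within a library was 1.1 to 1.3 in Control and 2.04 to 2.26 in Hdac4-knockdown. Rad51b (log2 fold change -0.08, SE 0.142, adjusted p = 0.6), Rad51d (0.09, SE 0.0733, adjusted p = 0.26) and Xrcc2 (-0.14, SE 0.074, adjusted p = 0.102) had overlapping groups. Without Control replicate 2, Xrcc2 was called lower, at -0.205.

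Of the strand invasion genes and Blm, 3 of 4 were downregulated (beside 37.1% of all tested genes), all beyond 0.5 (beside 19.8%). The 4 genes had a median of -0.68 and a summed level of 114 ± 2.67 CPM against 80.5 ± 3.06 CPM (70.9%). Rad54l, a DNA motor that helps the broken strand to invade the duplex, was at 38.7, 35.2 and 36.2 CPM in Control and at 20.6, 20.5 and 21.4 CPM in Hdac4-knockdown (log2 fold change -0.82, SE 0.0637, adjusted p = 5.49e-10). Its relative Rad54b followed, with 18.7 to 18.8 CPM against 10.5 to 11.3 CPM (log2 fold change -0.79, SE 0.079, adjusted p = 2.3e-08). Blm, the helicase that dissolves joined recombination intermediates, changed by -0.56 (SE 0.071, adjusted p = 6.33e-07). Rad51ap1, which stimulates strand invasion, was the exception, at 30.9, 30 and 28.5 CPM in Control and 27.4, 29.2 and 32.7 CPM in Hdac4-knockdown (adjusted p = 0.967). Its Control range lay inside its Hdac4-knockdown range. Of the exon bases of Rad54b, 35.9% are shared with Fsbp and Gm11832, and 15.4% of those of Rad54l with Lrrc41, so these counts rest on part of each gene if reads on shared bases were set aside.

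The summed levels of the Fanconi complexes are given side by side, without a test of their difference. The 2 genes of the ID2 heterodimer were both downregulated (beside 37.1% of all tested genes), from a summed 67 ± 2.83 CPM to 30.6 ± 2.11 CPM (45.7% of Control). The 8 core complex genes went from 156 ± 5.74 CPM to 150 ± 1.22 CPM (96.1%). Fancd2 was at 39.2, 41.2 and 38.7 CPM in Control and at 19.4, 17.1 and 16.8 CPM in Hdac4-knockdown (44.7% of Control, log2 fold change -1.16, SE 0.0682, adjusted p = 6.62e-12). Fanci was at 28.3, 28.3 and 25.2 CPM in Control and at 13.7, 12.6 and 12.4 CPM in Hdac4-knockdown (47.1%, log2 fold change -1.09, SE 0.0767, adjusted p = 1.24e-10). The partners changed by a like factor, and the Fancd2 to Fanci count ratio lay at 1.39 to 1.53 in Control and 1.36 to 1.42 in Hdac4-knockdown, with overlapping groups. Of the exon bases of Fanci, 16% are shared with Polg.

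Within the core complex, 4 of 8 genes were downregulated (beside 37.1% of all tested genes), 1 was upregulated (beside 38%) and 3 did not pass the test, none reached 0.5 on the log2 scale, and the median was -0.2. Fancl, the subunit with the ubiquitin ligase activity, was at 11.3, 11.1 and 11.9 CPM in Control and at 7.69, 8.94 and 7.97 CPM in Hdac4-knockdown (log2 fold change -0.48, SE 0.0972, adjusted p = 0.000195). Fance, which joins the core complex to Fancd2, was higher in every Hdac4-knockdown library, at 30.5, 31.3 and 29.1 CPM in Control and 35.3, 37.3 and 37.6 CPM in Hdac4-knockdown (121%, log2 fold change 0.28, SE 0.0594, adjusted p = 0.000333). Fancc, which pairs with Fance and Fancf, changed by -0.39 (SE 0.104, adjusted p = 0.00221). Fancb, of the same subcomplex as Fancl, and Fancf, an adaptor subunit, were close to the threshold, at -0.22 (SE 0.0771, adjusted p = 0.0133) and -0.29 (SE 0.117, adjusted p = 0.0319). Fancb lost its call without Control replicate 2 (adjusted p = 0.0718) and with library size alone (0.0564), and Fancf lost its call in DESeq2 (adjusted p = 0.0887), with library size alone (0.0806), with at least 10 counts in every library (0.062) and without Control replicate 1 or Hdac4-knockdown replicate 1. Fanca (0.03, adjusted p = 0.674), Fancm, the DNA translocase that anchors the complex (-0.1, adjusted p = 0.203), and Fancg (-0.18, adjusted p = 0.116) had overlapping groups. Fancg was called lower, at -0.28, without Control replicate 1.

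Of the checkpoint kinases and mediators, 5 of 6 were downregulated (beside 37.1% of all tested genes), 4 of them beyond 0.5 (beside 19.8%). The 6 genes had a median of -0.58 and a summed level of 493 ± 9.82 CPM against 346 ± 9.8 CPM (70.1%). Atm, the kinase activated by double-strand breaks, did not pass the test, with 62.2, 61.8 and 65.8 CPM in Control and 63.9, 59.2 and 61.1 CPM in Hdac4-knockdown (log2 fold change -0.04, SE 0.0507, adjusted p = 0.452). Its substrate kinase Chek2 was at 23.4, 24.5 and 22 CPM in Control and at 12.6, 14.2 and 12.5 CPM in Hdac4-knockdown (56.2%, log2 fold change -0.83, SE 0.0788, adjusted p = 1.13e-08). Atr, the kinase activated at stalled forks, had a small change of -0.23 (SE 0.0616, adjusted p = 0.00235), and its substrate kinase Chek1 a change of -0.58 (SE 0.0745, adjusted p = 7.78e-07). In both arms, the effector kinase was lower relative to its upstream kinase, with Chek2 to Atm count ratios of 0.335 to 0.396 in Control and 0.197 to 0.24 in Hdac4-knockdown, and Chek1 to Atr count ratios of 0.744 to 0.812 and 0.567 to 0.656.

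The mediators that activate Atr and present Chek1 to it were lower too. Topbp1, which switches Atr on, was at 227, 243 and 227 CPM in Control and at 152, 147 and 141 CPM in Hdac4-knockdown (63%, log2 fold change -0.67, SE 0.0441, adjusted p = 4.24e-11). Clspn, the adaptor between Atr and Chek1, was at 93.3 to 98.1 CPM in Control and 62.2 to 67.5 CPM in Hdac4-knockdown (log2 fold change -0.58, SE 0.0485, adjusted p = 1.75e-09).

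**Figure D3:**
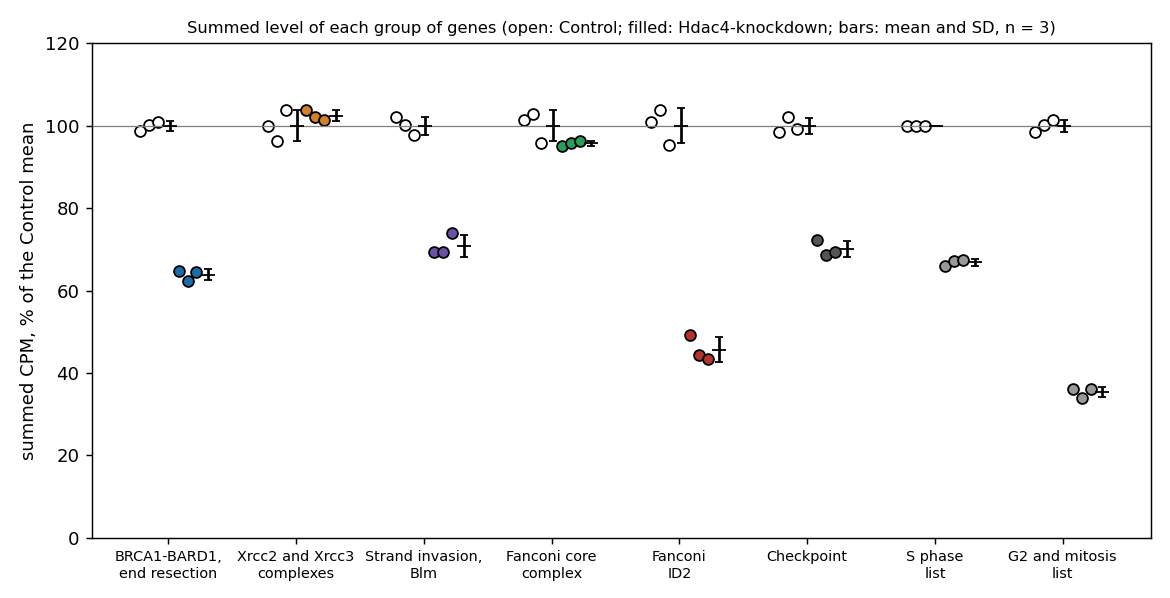
Summed CPM of each role group, and of the S phase and the G2 and mitosis lists, in each library as a percentage of the Control mean, with open points for Control, filled points for Hdac4-knockdown and bars for the mean and SD of 3 libraries. The ID2 heterodimer is at 45.7% of Control and the genes of the Xrcc2 and Xrcc3 complexes at 102%.

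Levels can be compared between genes only per length. Per kilobase of exon, the Control levels of the 35 genes ran from 1.25 CPM per kb for Fancc to 21.3 CPM per kb for Nbn, with a median of 4.76. Topbp1 (20.7), Rad50 (17.2), Clspn (13.3) and Mre11a (11.1) followed Nbn. The Hdac4-knockdown levels ran from 0.829 CPM per kb for Palb2 to 15.6 CPM per kb for Nbn, with a median of 3.76. In Control, all of the Mre11-Rad50-Nbn subunits thus stood among the 5 most expressed of these genes by this length. The length counts the exon bases of all annotated transcripts of a gene, 2533 over 2 transcripts for Nbn and 11226 over 10 for Topbp1. The order thus depends in part on the annotation.

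Within-library count ratios do not depend on how libraries are scaled, and 7 pairs of partner genes were set against each other this way after their values had been seen. In 6 pairs the groups did not overlap, with an exact two-sided permutation p of 0.1 (0.117 adjusted over the 7 pairs by Benjamini-Hochberg), the smallest that 3 libraries against 3 allow. On the log2 scale, the ratio changed by -0.51 (SE 0.043) for Bard1 to Brca1, -0.79 (SE 0.11) for Chek2 to Atm, -0.36 (SE 0.071) for Chek1 to Atr, 0.86 (SE 0.088) for Xrcc3 to Rad51c, 0.34 (SE 0.051) for Nbn to Rad50 and 0.19 (SE 0.068) for Mre11a to Rad50. For Fancd2 to Fanci it changed by -0.08 (SE 0.047, exact permutation p = 0.2). Between complexes, the ratio of the ID2 genes to the 8 core complex genes went from 0.428 ± 0.00361 to 0.204 ± 0.0156, and that of the 5 genes of the Xrcc2 and Xrcc3 complexes to the 10 BRCA and resection genes from 0.138 ± 0.00469 to 0.221 ± 0.00409. These last ratios are a description, without a test.

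**Figure D4:**
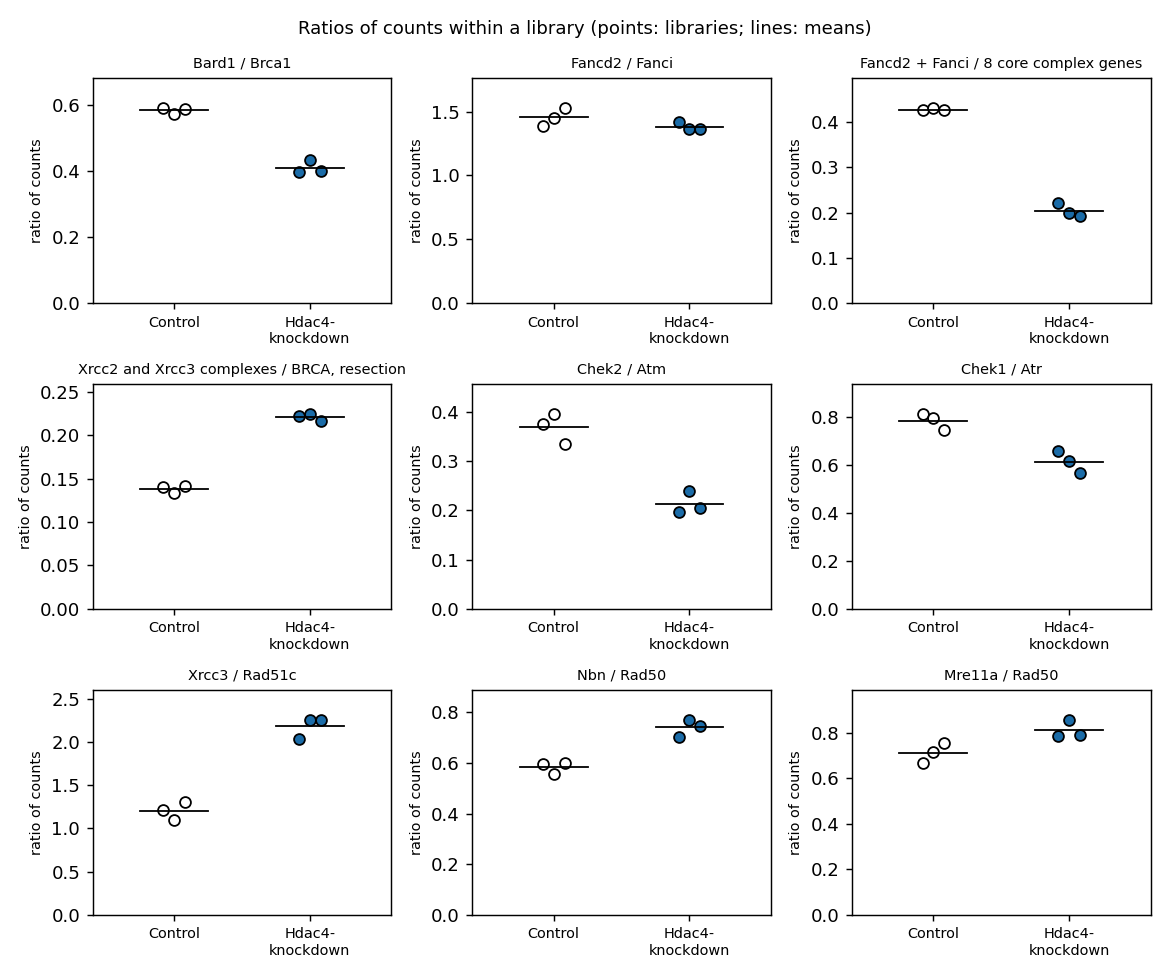
Ratio of counts within each library for pairs of partner genes and for pairs of complexes, Control beside Hdac4-knockdown, 3 libraries each. Groups do not overlap for Bard1 to Brca1 or Xrcc3 to Rad51c, and they overlap for Fancd2 to Fanci.

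To show the sequence at the genes with the lowest and the highest change, the promoter windows of Bard1 and Xrcc3 are given, from 250 bases before the RefSeq transcription start to 50 bases after it (RefSeq, GRCm38.p6, 5′ to 3′ on the strand of the gene). Capitals mark matches to any of 3 motifs that are common at cell cycle genes. These are an E2F-type site (TTTGGCGC, TTTCCCGC, TTTGCCGC or TTTCGCGC), the cell cycle homology region core (CHR, TTTGAA) and the CCAAT box (CCAAT), each searched on both strands, and none of these words contains another.
Bard1, chr1:71102923-71103222, minus strand: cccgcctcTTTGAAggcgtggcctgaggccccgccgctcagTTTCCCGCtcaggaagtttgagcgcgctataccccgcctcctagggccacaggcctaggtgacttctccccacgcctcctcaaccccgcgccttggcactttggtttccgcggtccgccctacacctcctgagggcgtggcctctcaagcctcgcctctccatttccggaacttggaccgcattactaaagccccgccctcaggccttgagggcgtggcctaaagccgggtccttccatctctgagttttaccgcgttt
Xrcc3, chr12:111813830-111814129, minus strand: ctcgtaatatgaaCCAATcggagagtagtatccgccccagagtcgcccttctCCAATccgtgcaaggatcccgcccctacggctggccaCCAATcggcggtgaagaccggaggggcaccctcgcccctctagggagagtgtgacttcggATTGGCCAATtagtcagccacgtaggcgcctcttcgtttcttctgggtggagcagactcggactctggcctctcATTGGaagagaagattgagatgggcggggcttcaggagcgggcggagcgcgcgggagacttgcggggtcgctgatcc
The Bard1 window holds an E2F-type word and a CHR word, and the Xrcc3 window holds CCAAT words only. The Bard1 gene of GENCODE M21 starts at position 71103146 on the minus strand, inside the window and upstream of the RefSeq start.

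For 27 of the 35 genes 30 windows were found, and a gene was counted when any of its windows held the word. No window was found for Fancd2, Rbbp8, Rad50, Rad54b, Nbn, Exo1, Xrcc2 and Rad51d. Their log2 fold changes, from -1.16 for Fancd2 to 0.09 for Rad51d, do not enter the motif counts and medians. An E2F-type word was present in 7 of the 27 (25.9%), beside 4.6% of the 10372 tested genes with a window and 2.6% of all 27025 genes with a window. These 7 genes held 8 such words, shown here with their flanking bases and with the word in capitals, each on the strand on which the word reads in this direction.
Bard1, chr1:71103164-71103191, minus strand: cgccgctcagTTTCCCGCtcaggaagtt
Brca2, chr5:150522443-150522470, minus strand: tgtgtgtctgTTTCCCGCtgtggcctaa
Chek2, chr5:110839821-110839848, minus strand: gacgtcttggTTTCCCGCggctaatccc
Clspn, chr4:126556991-126557018, minus strand: aagttcgagcTTTCGCGCccagacgcgg
Fancg, chr4:43010336-43010363, minus strand: ttcttttcagTTTCCCGCggaaccgtct
Rad51c, chr11:87404478-87404505, minus strand: tttccagcgcTTTCGCGCctcttgctct
Rad51c, chr11:87404942-87404969, plus strand: accccttgctTTTCCCGCcctcgcgggg
Topbp1, chr9:103305188-103305215, minus strand: gggaaccgacTTTCGCGCcaaccgagcg
Of these 7 genes, 6 were downregulated (beside 48.2% of all tested genes with the word) and Fancg was not called, and the 7 log2 fold changes had a median of -0.58. Of the 20 genes without the word 13 were downregulated (beside 38.2% of all tested genes without it), with a median of -0.34. Over all tested genes with a window, the corresponding medians were -0.14 and 0.01. The CHR word was found for 2 of the 27 genes (7.4%, beside 14.4% of tested and 20.2% of all genes). The CCAAT word was found for 18 of the 27 (66.7%, beside 43.1% and 41.1%), and the genes with it had a median of -0.34 beside -0.48 for those without. Over all tested genes with a window, the order was the other way, with medians of -0.04 with the CCAAT word and 0.04 without. A match is a description of the letters in these windows and not a binding site.

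The genes were spread over 13 chromosomes, with at most 6 on 1 chromosome (chromosome 11). Of the 35, 14 share exon bases with another gene. Besides the genes named above, the share was 18.6% for Fancc, 15% for Fancf (Gas2), 13.7% for Fancl (Vrk2) and 10.5% for Fanca (Zfp276), and under 8% for the rest. The reads carry no strand, so these genes are less certain than the others.

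Other genes of the same pathways were compared as a wider list of 66, all of which were tested. Of these, 47 were downregulated (71.2%, beside 37.1% of all tested genes), 10 upregulated (beside 38%) and 9 not called, and the median log2 fold change was -0.32 with a range of -1.68 to 1.52. By pathway, 19 of 29 genes listed under recombination, 10 of 13 Fanconi genes and 18 of 24 checkpoint genes were downregulated, with medians of -0.36, -0.29 and -0.24. The recombination list includes Polq, a polymerase that acts in a form of end joining, which was lower (log2 fold change -0.61). The lowest were Cdc25c, a phosphatase that drives entry into mitosis, at 25.3 ± 1.39 CPM in Control and 7.88 ± 0.623 CPM in Hdac4-knockdown (log2 fold change -1.68, SE 0.0851, adjusted p = 5.99e-13), Gen1, a resolvase that cuts Holliday junctions (-1.53, SE 0.0646, adjusted p = 3.21e-14), and Cdc25b, a further mitotic phosphatase (-1.46, SE 0.0455, adjusted p = 2.34e-16). The highest were Eme2, a partner of the Mus81 nuclease (1.52, SE 0.149, adjusted p = 1.82e-08), Recql5, a helicase that limits recombination (0.56, SE 0.059, adjusted p = 4.77e-08), and Faap100, a Fanconi core subunit (0.4, SE 0.0623, adjusted p = 9.23e-06). Of the 6000 exon bases of Eme2, 3251 are shared with Spsb3 and Mapk8ip3.

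Repair pathways that do not depend on a sister chromatid were set beside them. Of 46 tested genes for end joining, mismatch, base excision and nucleotide excision repair, 21 were downregulated (45.7%, beside 37.1% of all tested genes), 12 upregulated (beside 38%) and 13 not called, and their median log2 fold change was -0.16. The medians were -0.17 for end joining, -0.2 for mismatch repair, -0.27 for base excision repair and -0.13 for nucleotide excision repair.

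**Figure D5:**
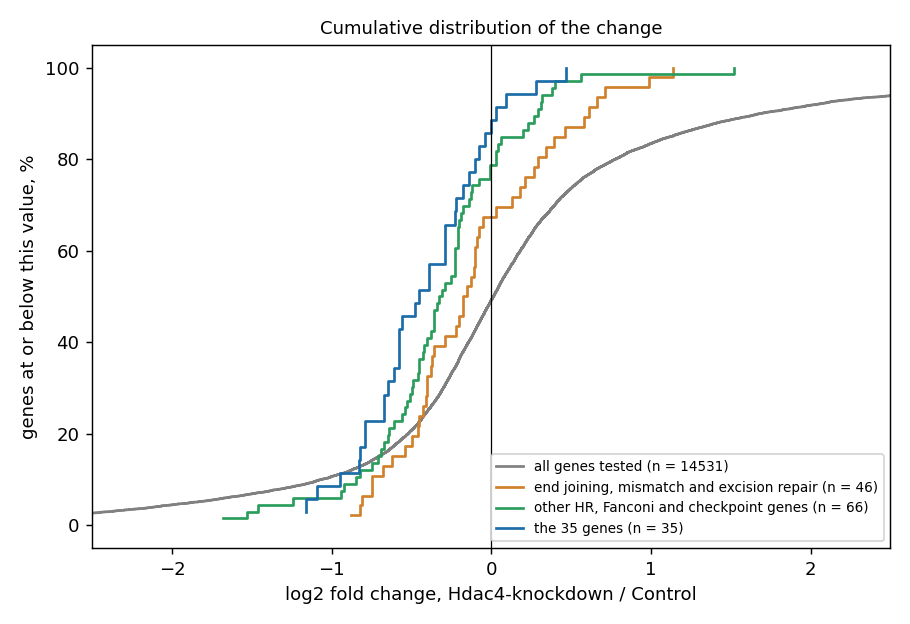
Cumulative share of genes (percent) by log2 fold change (Hdac4-knockdown minus Control) for the 35 genes, the 66 other pathway genes, the 46 genes of other repair pathways and all 14531 tested genes. The axis is drawn over the central part of the range of all genes, and the 35 genes have their median at -0.45, beside -0.32, -0.16 and 0.014 for the others.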

How the data were processed

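RNA of MC3T3-E1 cells was sequenced in 6 libraries, 3 Control and 3 Hdac4-knockdown, and the authors deposited raw counts of reads per Ensembl gene for each library. The submitters' processing notes name FastQC, STAR 2.7.3a, HTSeq 0.12.4 and mm10, and the library kit does not keep strand. The labels call the hairpin Hdac4-shRNA. It was taken as the third of the study's 3 hairpins from its account of the sequencing.

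Summary lines were left out of library sizes. Reads outside genes made up 3.17 to 5.07% of all reads, ambiguous reads 5.84 to 6.51% and reads without a unique position 3.88 to 4.77%. Replicates differed by more than sampling noise (chi-square per degree of freedom 3.38 to 9.15). Symbols, positions and exon lengths came from GENCODE M21 (GRCm38), in which 53706 of 53801 identifiers were found. The groups were tested with the quasi-likelihood F test of edgeR 4.0.16 under R 4.3.3 (TMM, filterByExpr, Benjamini-Hochberg adjustment over 14531 genes). CPM values are scaled by TMM, and the biological coefficient of variation was 4.79%. The test was checked on simulated data in which far fewer genes changed than were called here. That check thus does not cover changes as widespread as those in these data.

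The genes, their roles, the wider lists and the rule for named genes were chosen with earlier results of these data known. All 35 genes were named, and of the 66 others the 3 lowest and 3 highest called genes with at least 100 mean counts and no overlap between the groups. A gene of the wider list is not reported here, and its list was counted without it. Promoter windows came from a RefSeq table and were matched by symbol. The fits were repeated with upper quartile scaling, DESeq2 size factors or unscaled library sizes, other count filters, DESeq2 1.42.0, limma-voom (limma 3.58.1), the replicate number as a block, a log2 fold change beyond 0.5, and leaving out each library.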

Additional observations from a re-analysis of the deposited data

Results flagged for a closer look

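Reads outside annotated genes, which no comparison above uses, made up 4.79% of all reads in the Hdac4-knockdown libraries on average (SD 0.243, range 4.64 to 5.07%) and 3.28% in Control (SD 0.122, range 3.17 to 3.41%). The result stands out because the groups did not overlap. Its relation to the repair and checkpoint genes was not tested.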

How the results depend on the processing

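Over the settings tried, 489 values of the 35 genes kept their direction and their side of the threshold, 20 became weaker, 3 stronger and 13 reversed. With a log2 fold change beyond 0.5 required, 16 of the 35 genes were lower and 0 higher, 20 of the 66 others were lower and 2 higher, and Hdac4 (-0.441) was no longer called. Of all tested genes, 19.8% were lower and 24.6% higher at that threshold. Every other setting gave 23 to 25 lower genes of the 35. The reversed values belong to genes that did not pass the test. Rad51b was at 0.004 with upper quartile scaling and at -0.151 to 0.009 with a library left out. Rad51ap1 was at 0.053 with library size alone, 0.086 with upper quartile, 0.034 with at least 10 counts in every library and -0.069 to 0.061 with a library left out. Fanca was at -0.002 with no filter beyond 1 count and -0.02 to 0.049 with a library left out, and Atm at 0.014 with library size alone and 0.046 with upper quartile. Upper quartile scaling moved the median of all genes to 0.103 and that of the 35 genes to -0.363. Under it Rad51d was called higher (0.182, adjusted p = 0.0309), and Fancb and Fancf were not called. The cause was not tested. Deviations of libraries with the same replicate number correlated at 0.000626, 0.141 and 0.0207. Such correlations cannot settle whether samples with the same number were prepared together. The replicate block gave 25 lower and 2 higher genes. Depth limits the scarcer genes, with an SE of 0.142 for Rad51b beside 0.0441 for Topbp1.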

Other observations

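Among the end-joining genes, which were not part of the 35 and were picked here after their values were seen, genes were called in both directions. Xrcc5 and Xrcc6, the Ku subunits that bind broken ends, were lower in every Hdac4-knockdown library, with log2 fold changes of -0.62 (SE 0.0504, edgeR adjusted p = 1.17e-09) and -0.68 (SE 0.0483, edgeR adjusted p = 1.2e-10). Polm, a polymerase that fills gaps at joined ends, went from 17.5 ± 1.05 CPM to 38.4 ± 1.36 CPM (1.14, SE 0.0665, edgeR adjusted p = 6.46e-12). Paxx, a factor that binds Ku, went from 4.42 ± 0.258 CPM to 8.81 ± 0.862 CPM (0.99, SE 0.121, edgeR adjusted p = 4.07e-07). Of the 10 end-joining genes, 5 were downregulated (beside 37.1% of all tested genes), 4 upregulated (beside 38%) and 1 not called.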
